A study of Mus musculus with 2 samples.

Results

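Kinesins are motor proteins that hydrolyse ATP to walk along microtubules or to take their ends apart. Mitotic kinesins build and divide the spindle of dividing cells, and transport kinesins carry vesicles, organelles and other cargo through the cytoplasm. The embryonic lung at the stage studied here is a dividing, branching tissue of epithelium, mesenchyme, vessels and ingrowing nerves.

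The family was taken as every protein-coding gene with a Kif or Kifc symbol of the form Kif plus a number and at most 1 letter, or Kifc plus 1 digit, leaving out Kif3a and Kif3b. This gave 39 of 21474 protein-coding genes. They were ordered by known role into 13 mitotic kinesins, 13 transport kinesins, 6 kinesins of the cilium and 7 others.

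Total RNA longer than 200 nt was sequenced from whole lungs of B6NCrl mouse embryos at embryonic day 15.5. Male and female embryos were pooled, 78 for replicate 1 and 62 for replicate 2, and each library started from 10 ng of RNA with spike-in sequences added. These 2 libraries form a single group with no treatment and no second condition, so the comparisons are among genes and between the pools. Spread between the libraries takes in pools, dissection and library making, which cannot be told apart. Levels are in TPM, reads divided by transcript length and scaled to a common total, and are written for replicate 1 first, then as mean ± SD (n = 2).

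The libraries held 40395850 and 36601054 estimated reads. A gene with no reads could still have had up to 3 by counting error, which for an effective length of 1 kb is 0.113 TPM in replicate 1 and 0.122 TPM in replicate 2. All 4 markers of lung epithelium, all 4 of lung mesenchyme and all 3 of endothelium reached 10 TPM or more in both libraries. The pools differed in markers of neighbouring organs. From replicate 1 to replicate 2 the summed TPM went from 22.3 to 111 for 4 liver genes, from 64.7 to 243 for 4 heart and skeletal muscle genes and from 77.9 to 15.2 for 5 thymus genes. The part of these cells in the kinesin values was not tested. Summed TPM of 8 proliferation genes was 1747 and 1732.

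Of the 39 kinesins, 32 were detected, meaning 1 TPM or more in both libraries, which is 82.1% of the family beside 60.7% of all protein-coding genes. Detected genes numbered 12 of 13 among mitotic kinesins, 11 of 13 among transport kinesins, 3 of 6 among cilium kinesins and 6 of 7 among the others. At 10 TPM or more in both libraries stood 15 of 39 kinesins, a share of 38.5% that is close to the 40.6% of all protein-coding genes. Those 15 were unevenly spread over the roles: 10 mitotic, 4 transport, none of the 6 cilium kinesins and 1 of the others.

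The lung transcriptome held mitotic kinesins at higher levels than transport kinesins. The median mitotic kinesin stood at 26.1 and 25.2 TPM (25.6 ± 0.629), and the median transport kinesin at 8.10 and 5.31 TPM (6.71 ± 1.97), while the median of all protein-coding genes was 4.99 and 4.52 TPM. The ratio of the mitotic to the transport median was 3.22 in replicate 1 and 4.74 in replicate 2 (3.98 ± 1.08). The transport median fell on Kif16b in replicate 1 and on Kif1a in replicate 2, and without Kif1a the ratio was 4.29 and 4.51 (4.40 ± 0.157), a setting chosen after seeing the data. By sums, mitotic kinesins held 66.7 ± 0.697% of the TPM of the whole family, transport kinesins 26.5 ± 0.801%, cilium kinesins 2.07 ± 0.0634% and the others 4.78 ± 0.168%. In bulk tissue fewer cells of a type and less RNA per cell cannot be told apart, so a level says nothing of how many cells hold the transcript.

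**Figure D1:**
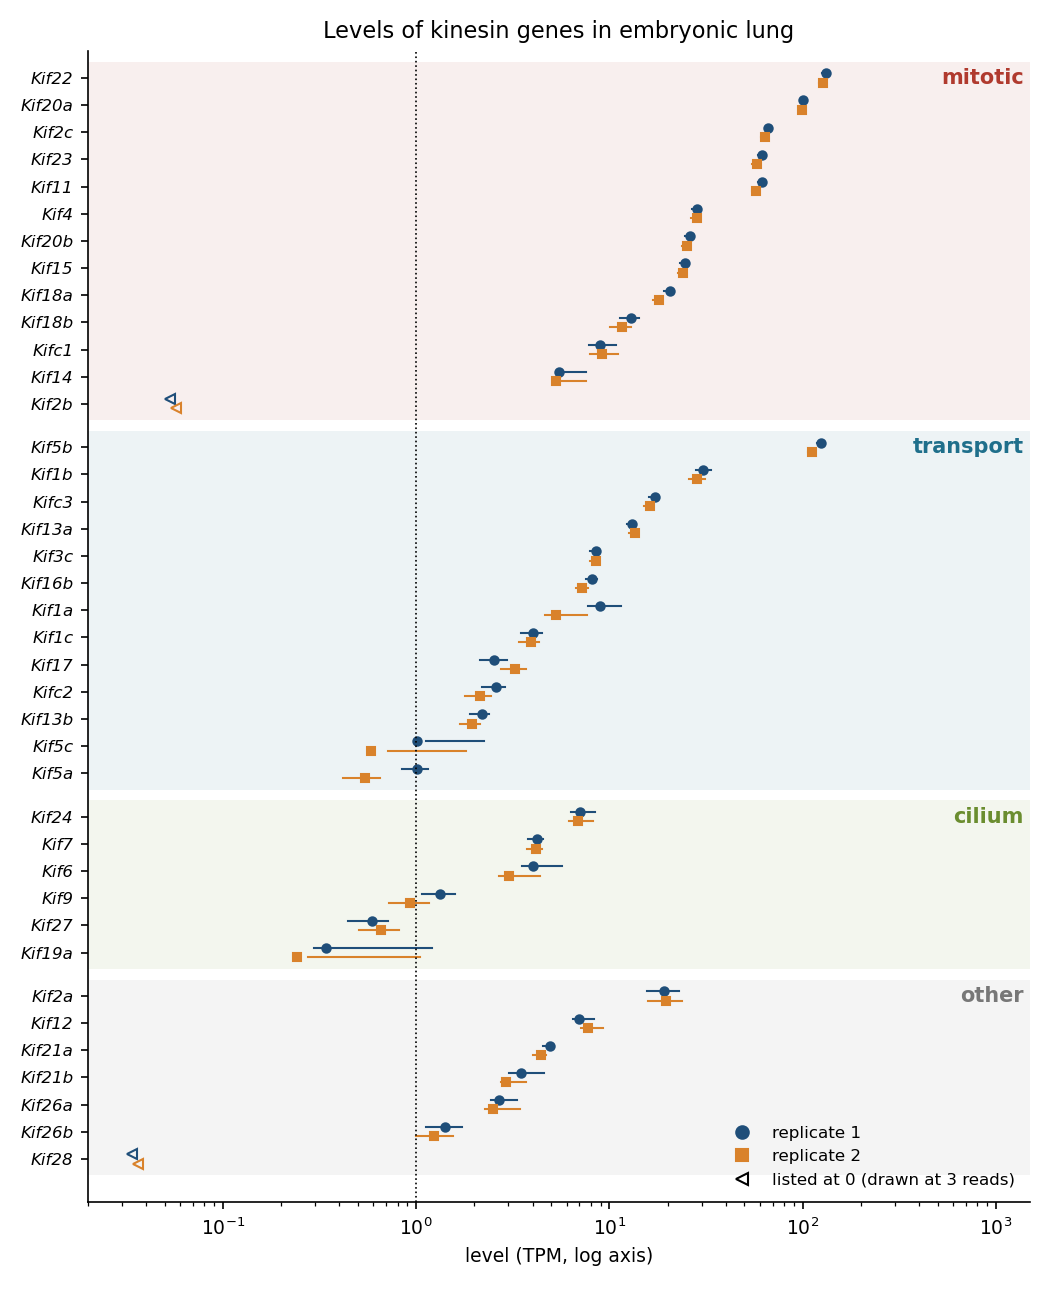
Level of each of the 39 kinesin genes in TPM (log axis) by role, with circles for replicate 1, squares for replicate 2 and lines for the deposited interval; open triangles mark genes listed at 0, drawn at the level of 3 reads, and the dotted line is the detection minimum of 1 TPM. Mitotic kinesins other than Kif2b lie above 5 TPM in both libraries, while transport kinesins spread from under 1 TPM (Kif5a, Kif5c) to over 100 TPM (Kif5b).

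Pairing every mitotic with every transport kinesin gave 169 gene pairs. The mitotic gene was higher in both libraries with separate deposited intervals in 124 of them, the transport gene in 36, and 9 pairs could not be ordered. A single transport gene, Kif5b, was in 12 of the 36, being above every mitotic kinesin except Kif22. Kif2b, the mitotic kinesin listed at 0, was in 13 of the 36, 1 for each transport gene. Of the 10 kinesins with the highest mean level 8 were mitotic and 2, Kif5b and Kif1b, were transport kinesins. Members are not replicates of each other, and no test over them is given.

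**Figure D2:**
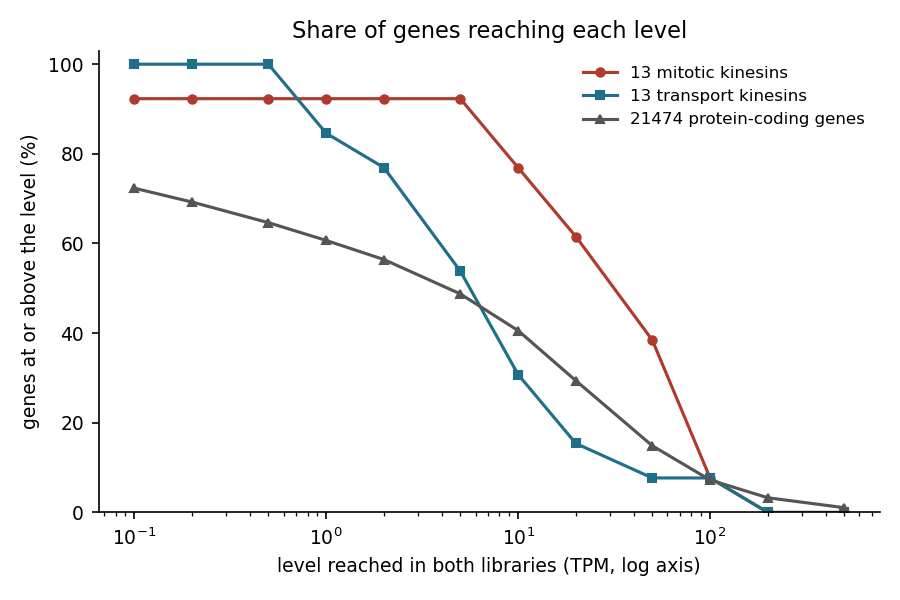
Percentage of genes (vertical axis) that reach a given TPM in both libraries (horizontal log axis) for 13 mitotic kinesins, 13 transport kinesins and 21474 protein-coding genes. Of the mitotic kinesins 12 reach 5 TPM and 8 reach 20 TPM; of the transport kinesins 7 reach 5 TPM and 2 reach 20 TPM.

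Motors of chromosome arms and of the midzone between separating chromosomes were found over a wide range of levels. Kif22, a chromokinesin that pushes chromosome arms away from the spindle poles (chromosome 7, 127027729 to 127042471, GRCm38, minus strand), stood at 132 and 128 TPM (130 ± 3.39), above 94.5% of protein-coding genes. Kif20a, which brings the chromosomal passenger complex to the midzone, stood at 101 and 99.6 TPM (100.1 ± 0.714). Kif23, the motor subunit of the centralspindlin complex (chromosome 9, 61915905 to 61946774), stood at 61.9 and 57.8 TPM (59.8 ± 2.93). Partners of these midzone motors had no common order relative to them. Racgap1, the other subunit of centralspindlin, at 157 and 146 TPM was above Kif23, and Ect2, which binds centralspindlin, at 56.0 and 52.4 TPM had intervals that overlapped those of Kif23. In the passenger complex Aurkb, the kinase, at 178 and 174 TPM was above Kif20a, and Incenp, the scaffold, at 68.9 and 67.2 TPM was below it.

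Kif2c, which takes apart microtubule ends at centromeres, stood at 66.3 and 64.2 TPM (65.2 ± 1.51), under Kif20a and above Kif23 with separate intervals in both libraries. Kif11, the kinesin that slides spindle poles apart (chromosome 19, 37376403 to 37421859, plus strand), stood at 61.5 and 57.3 TPM (59.4 ± 2.94), and its level could not be told from that of Kif23. Kif15, which can hold the poles apart alongside Kif11, was lower at 24.5 and 24.1 TPM (24.3 ± 0.297). Kif4, a chromokinesin of the X chromosome that also acts at the midzone with Prc1, stood at 28.5 and 28.3 TPM (28.4 ± 0.177). Kif20b, a motor of cytokinesis, stood at 26.1 and 25.2 TPM (25.6 ± 0.629). Kif4 was above Kif20b with separate intervals in both libraries, while Kif20b and Kif15 had overlapping intervals.

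The lower mitotic kinesins were Kif18a, Kif18b, Kifc1, Kif14 and Kif2b. Kif18a, which dampens chromosome movement at the spindle equator, stood at 20.5 and 18.0 TPM (19.3 ± 1.77), and Kif18b, its relative at growing microtubule ends, at 12.9 and 11.6 TPM (12.2 ± 0.919). Kifc1, a minus-end motor that bundles microtubules at the poles, stood at 8.95 and 9.14 TPM (9.05 ± 0.134). Kif14, a motor of cytokinesis, stood at 5.47 and 5.32 TPM (5.40 ± 0.106), the lowest detected mitotic kinesin. Kif2b, a spindle microtubule depolymerase, was listed at 0 in both libraries, where 3 reads would give 0.0529 and 0.0569 TPM. Kifc1 has a near copy, Kifc5b, which the rule for symbols leaves out and which was listed at 2.64 and 2.53 TPM. How reads were divided between the copies makes both levels uncertain, and their sum was 11.6 and 11.7 TPM.

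The partner list of the mitotic kinesins, 15 genes of the spindle and midzone, was detected in full, with a median of 76.1 and 77.5 TPM. Birc5, a subunit of the passenger complex, was the highest of them at 297 and 309 TPM. Cenpe, a kinetochore kinesin whose symbol does not match the family rule, was the lowest at 25.8 and 24.4 TPM, close to Kif20b and Kif15. Cdk1, the kinase that drives entry into mitosis, stood at 532 and 533 TPM.

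Transport kinesins were dominated by a single gene. Kif5b, the widely expressed heavy chain of conventional kinesin, stood at 125 and 112 TPM (119 ± 8.98) and held 55.3 ± 0.374% of the summed TPM of the 13 transport kinesins. Its relatives Kif5a and Kif5c, known as the neuronal heavy chains, stood at 1.01 and 0.54 TPM (0.775 ± 0.332) and at 1.01 and 0.58 TPM (0.795 ± 0.304). Kif5b was thus 166 ± 59.6 times Kif5a and 159 ± 49.4 times Kif5c, and Kif5a and Kif5c could not be told apart. Light chains that tie these heavy chains to cargo were present as Klc1 at 81.7 and 75.7 TPM, Klc4 at 21.7 and 20.8 TPM, Klc2 at 16.6 and 13.8 TPM and Klc3 at 15.7 and 11.1 TPM.

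The kinesin-3 motors, which carry vesicles and mitochondria, ranged over more than a factor of 10. Kif1b, a carrier of mitochondria and synaptic vesicle precursors (chromosome 4, 149176319 to 149307693), stood at 30.5 and 28.4 TPM (29.5 ± 1.45). Kif13a, a motor of endosomes, stood at 13.1 and 13.5 TPM (13.3 ± 0.304), which was 6.47 ± 0.657 times its relative Kif13b, at 2.18 and 1.95 TPM (2.07 ± 0.163). Kif16b, a motor of early endosomes, stood at 8.10 and 7.21 TPM (7.66 ± 0.629). Kif1a, known for carrying synaptic vesicle precursors in neurons, stood at 8.99 and 5.31 TPM (7.15 ± 2.60), and Kif1c, a more widely expressed relative, at 4.04 and 3.94 TPM (3.99 ± 0.0707). Within this group Kif1b was above Kif1a and Kif1c in both libraries with separate intervals, at 4.37 ± 1.39 times Kif1a and 7.38 ± 0.232 times Kif1c.

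Of the remaining transport motors, Kifc3, a minus-end motor of epithelial cells and their junctions, was the highest at 17.3 and 16.2 TPM (16.7 ± 0.764). Kif3c, a kinesin-2 motor that pairs with Kif3a, stood at 8.54 and 8.57 TPM (8.56 ± 0.0212). Kif17, the kinesin-2 motor that works as a pair of identical chains, stood at 2.53 and 3.24 TPM (2.89 ± 0.502), and Kifc2, a minus-end motor studied in neurons, at 2.58 and 2.14 TPM (2.36 ± 0.311). All 16 adaptor and partner genes of transport kinesins were detected, with a median of 22.6 and 20.5 TPM. Among them were Rhot1, the mitochondrial anchor, at 42.2 and 44.1 TPM, Trak1, its link to kinesin, at 13.0 and 11.1 TPM, and Arl8b, which recruits kinesins to lysosomes, at 66.1 and 64.9 TPM.

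Kinesins of the cilium were low as a group, with a median of 2.68 and 1.97 TPM (2.33 ± 0.502), under that of all protein-coding genes. Kif24, which restrains cilium assembly, stood at 7.03 and 6.87 TPM (6.95 ± 0.113), and Kif7, a Hedgehog pathway regulator at the tip of the primary cilium, at 4.21 and 4.18 TPM (4.20 ± 0.0212). Kif6 and Kif9, both linked to motile cilia, stood at 4.03 and 3.01 TPM (3.52 ± 0.721) and at 1.33 and 0.93 TPM (1.13 ± 0.283). Kif27 at 0.59 and 0.66 TPM and Kif19a, which trims the length of motile cilia, at 0.34 and 0.24 TPM were under the detection minimum. Of 10 motile cilia genes outside the family 7 were detected: Foxj1, the transcription factor of multiciliated cells, stood at 17.9 and 17.7 TPM, while the axonemal genes Dnah5, Dnah9 and Hydin were all under 1 TPM.

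In the remaining set, Kif2a, a depolymerase of spindle poles and of growing axons, was the highest at 19.3 and 19.6 TPM (19.5 ± 0.262), while its relative Kif2c was 3.35 ± 0.123 times as high. Kif12, an epithelial kinesin, stood at 6.95 and 7.78 TPM (7.37 ± 0.587). Kif21a and Kif21b, which damp microtubule growth, stood at 4.92 and 4.43 TPM (4.68 ± 0.346) and at 3.47 and 2.92 TPM (3.20 ± 0.389), with overlapping intervals. Kif26a and Kif26b, kinesin-related proteins that act in signalling, stood at 2.67 and 2.49 TPM (2.58 ± 0.127) and at 1.41 and 1.24 TPM (1.33 ± 0.120). Kif28 was listed at 0 in both libraries.

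Along the whole order of 39 genes, only 10 of 38 neighbouring pairs had separate intervals in both libraries, so most adjacent positions are not resolved. Exons of several kinesins overlap genes on the opposite strand, and the files' use of strand is not stated. The overlap covers 29.3% of the exon length of Kif20a (with Cdc23), 19.2% of Kif2a (with Dimt1), 15.1% of Kif4 (with Pdzd11) and 35.3% of Kif3c (with 1110002L01Rik), and these levels are uncertain to that degree.

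The promoter windows of the family were searched for 2 short stretches that recur in genes of the late cell cycle. The cell cycle genes homology region, or CHR, is bound by the DREAM and MYB-MuvB complexes and was searched as TTTGAA or TTCGAA on both strands; the CCAAT box is bound by NF-Y and was searched as CCAAT on both strands. Neither pattern contains the other, and windows ran from 250 bases before to 50 bases after each start of transcription in the RefSeq promoter table (GRCm38.p6), which held 30 of the 39 members. CHR letters lay in a window of 10 of 12 mitotic kinesins with a promoter (83.3%), of 1 of 8 transport kinesins (12.5%) and of 3153 of 16317 protein-coding genes (19.3%). The CCAAT letters lay in 8 of 12 mitotic (66.7%), 1 of 8 transport and 42.0% of protein-coding genes. Both together lay in 7 of 12 mitotic kinesins (58.3%), 0 of 8 transport kinesins and 7.93% of protein-coding genes. Among 5 cilium kinesins with a promoter CHR letters lay in 2 (40%), Kif24 and Kif27, each with CCAAT letters as well, the Kif27 window lying far from its GENCODE start, and among 5 of the other kinesins both patterns lay in 1 (20%), Kif26b. A match is a description of letters and not evidence of a bound site, and its absence says nothing about a factor.

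In 8 mitotic kinesins, Kif22, Kif23, Kif11, Kif4, Kif20b, Kif15, Kif18b and Kifc1, the CHR letters lay close to the start itself, and these stretches of 30 bases are shown, 5′ to 3′ on the gene's strand, because they show the matches that lie near a start. In Kif2c and Kif14 the letters lay further off, from -103 and -228. The RefSeq starts of these 2 windows lie more than 500 bases from the GENCODE start, so they may not be the promoters in use. Kif18a and Kif2b had none of the CHR letters. Capitals mark the CHR letters, as TTTGAA or its reverse complement TTCAAA; in Kif20b another copy follows directly in lower case.
Kif22 (chr7:127042420-127042449, minus): gggccccggtaaTTCAAAagagagaagcgg
Kif23 (chr9:61946780-61946809, minus): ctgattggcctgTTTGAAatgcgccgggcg
Kif11 (chr19:37376351-37376380, plus): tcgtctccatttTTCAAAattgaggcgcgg
Kif4 (chrX:100626072-100626101, plus): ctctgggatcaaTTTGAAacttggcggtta
Kif20b (chr19:34922353-34922382, plus): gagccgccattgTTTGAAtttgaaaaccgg
Kif15 (chr9:122951050-122951079, plus): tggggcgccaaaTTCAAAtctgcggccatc
Kif18b (chr11:102925104-102925133, minus): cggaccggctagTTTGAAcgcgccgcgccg
Kifc1 (chr17:33890615-33890644, minus): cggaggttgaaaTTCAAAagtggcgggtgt
The first base of these matches lay from -19 (Kif11 and Kif15) to 20 (Kif4) relative to the RefSeq start. Narrowing the window to 50 bases on each side of the start left 8 of 12 mitotic kinesins (66.7%), 1 of 8 transport kinesins and 4.92% of protein-coding genes. The levels of the 8 genes ran from 9.05 TPM (Kifc1) to 130 TPM (Kif22), so genes with the letters at the start spanned most of the mitotic range.

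A longer stretch shows how the letters sit in a promoter with both patterns and what a transport window without either looks like. Each covers the 100 bases before the RefSeq start, and capitals mark ATTGG, the reverse complement of CCAAT, and TTCAAA. Kif11 lies at chr19:37376282-37376381 on the plus strand, and Kif3c at chr12:3365032-3365131 on the plus strand.
Kif11: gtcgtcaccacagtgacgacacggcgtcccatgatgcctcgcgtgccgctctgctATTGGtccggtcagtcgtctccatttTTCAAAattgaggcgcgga
Kif3c: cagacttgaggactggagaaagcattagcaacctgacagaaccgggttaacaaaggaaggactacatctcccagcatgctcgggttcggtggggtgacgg
In Kif11 the CCAAT letters start at -45 and the CHR letters at -19. The CHR match among transport kinesins lay in a window of Kif1a far inside the gene as GENCODE draws it, and among windows within 500 bases of a GENCODE start CHR letters remained in 8 of 10 mitotic and 0 of 7 transport kinesins, beside 16.2% of protein-coding genes. The counts moved with the window: in the 100 bases before the start alone, 3 of 12 mitotic kinesins (25%) and 1 of 8 transport kinesins held CHR letters, beside 5.69% of protein-coding genes.

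**Figure D3:**
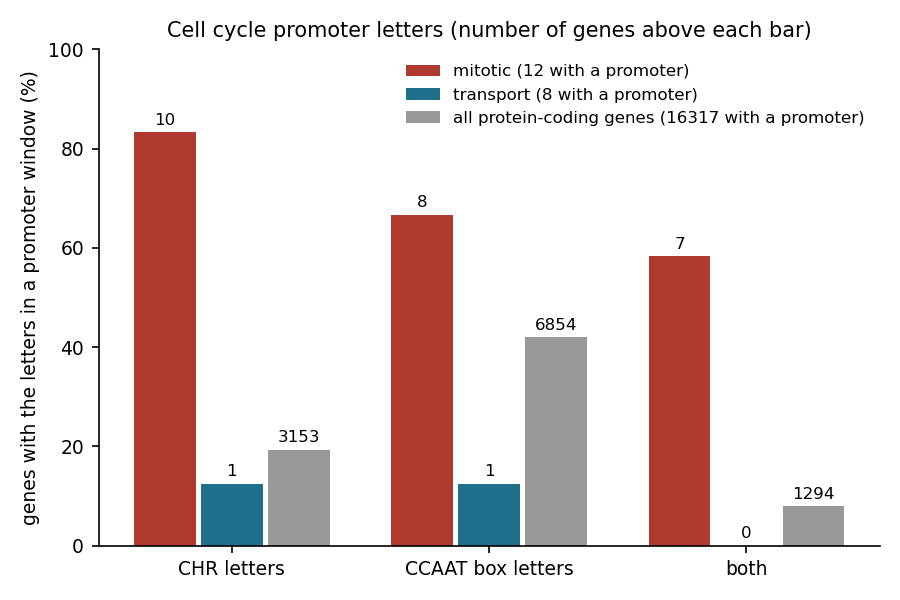
Percentage of genes with CHR letters, CCAAT letters or both in a RefSeq promoter window (vertical axis) for mitotic kinesins, transport kinesins and all protein-coding genes, with the number of genes above each bar. CHR letters are in 10 of 12 mitotic and 1 of 8 transport windows, and both patterns together in 7 and 0.

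Several kinesin levels rest on a mixture of transcripts. Of the 32 detected kinesins, 14 had a leading transcript with 80% or more of the gene's TPM in both libraries, 9 of the 32 having a single annotated transcript; another 13 had a second transcript with 20% or more in both. By role, such a leading transcript was found in 8 of 12 mitotic and 5 of 11 transport kinesins. Among these, 5 mitotic and 4 transport kinesins have a single annotated transcript, which fixes the share at 100%. The same share over all genes was not counted, so the contrast is not read as a trait of either role. Many of the incomplete models and retained introns are short, and since TPM divides by length, a short model turns few reads into a large TPM.

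Kif5b shows a gap between share of TPM and share of reads that is milder than in Kif1b and Kif1a, given below. The full-length Kif5b-201, which encodes 963 residues, held 37.1 and 39.8% of the gene's TPM, or 46.3 and 44.8 TPM. An incomplete coding model, Kif5b-202, held 57.4 and 54.9% of the TPM on 33.0 and 30.5% of the reads. Counted on complete coding transcripts alone, Kif5b thus remained the highest transport kinesin, but under Kif22, Kif20a, Kif2c, Kif23 and Kif11.

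For Kif1b, the shorter Kif1b-201 of 1150 residues, the mitochondrial form, held 49.2 and 47.7% of the TPM, and the longer Kif1b-203 of 1816 residues, the vesicle form, 17.0 and 16.8%. A retained intron of 587 nt, Kif1b-205, held 27.6 and 31.2% of the TPM on only 2.51 and 2.91% of the reads. In Kif1a an incomplete model of 528 nt, Kif1a-206, led with 44.1 and 50.4% of the TPM on 7.47 and 6.31% of the reads. Complete coding transcripts of Kif1a came to 3.07 and 2.34 TPM.

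Retained introns led 2 of the detected kinesins, Kif17 and Kif6. The leading transcript of Kif17 was a retained intron, Kif17-203, with 35.8 and 56.2% of the TPM, and that of Kif6 was Kif6-201, also a retained intron, with 32.3 and 40.5%. In Kif24 the coding Kif24-202 held 42.1 and 39.2% and the processed transcript Kif24-204 23.2 and 29.3%. Kifc3 was split between coding forms of 824 residues (78.9 and 73.4%) and 778 residues (21.1 and 26.6%), and Kif1c between Kif1c-204 of 1100 residues (42.0 and 55.1%) and Kif1c-205 of 425 residues (32.6 and 28.4%).

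Among mitotic kinesins the splits were fewer. Kif20a-201 and Kif20a-202, both of 887 residues, differ by 2 nt in length and changed places between the libraries, with 43.5 and 57.6% for the former and 56.5 and 42.4% for the latter. Kif14 was split between the coding Kif14-203 (63.6 and 58.0%) and a retained intron, Kif14-202 (36.4 and 42.0%), and Kif18b between the coding Kif18b-201 (76.5 and 76.6%) and the short Kif18b-202 (23.5 and 23.4%), the latter on 2.62 and 2.60% of the reads. In the other sets, Kif2a was led by Kif2a-201 in replicate 1 (40.1 and 36.6%) and by a 288-nt model, Kif2a-205, in replicate 2 (36.3 and 38.1%). Kif21a-205 and Kif21a-204 also changed places, with 56.6 and 39.9% for the former and 33.5 and 45.2% for the latter, and so did Kif7-203 and Kif7-202. Kif7-203 was listed at 47.4% of the TPM in replicate 1 and at 0 in replicate 2. The main Kif26b transcripts were the coding Kif26b-202 (49.5 and 61.3%) and a retained intron, Kif26b-203 (46.8 and 26.0%).

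**Figure D4:**
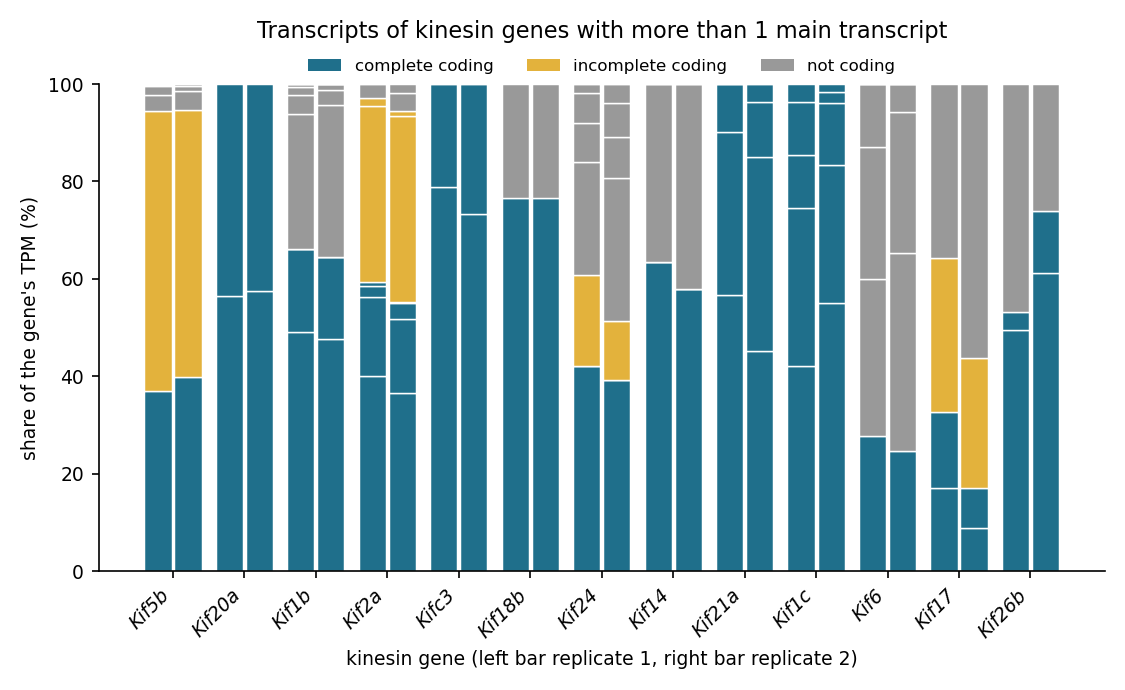
Share of each gene's TPM held by its transcripts (vertical axis, %) for the 13 detected kinesins with more than 1 transcript at 20% or more in both libraries, left bar replicate 1 and right bar replicate 2; colours separate complete coding, incomplete coding and not coding transcripts. Kif5b is led by an incomplete coding model and Kif6 and Kif17 by retained introns.

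On complete coding transcripts alone, 5 of the 32 detected kinesins kept under 50% of their TPM in both libraries, namely Kif5b, Kif1a, Kif24, Kif6 and Kif17. The transport median was then 4.05 and 3.94 TPM and the mitotic median, which rests on Kif20b with a single transcript, 26.1 and 25.2 TPM. The ratio of the medians rose to 6.41 ± 0.0327. This way of counting was chosen after seeing the data.

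Differences between the replicate pools were counted for the kinesins beside all genes. Of the 22 members with a mean of 5 TPM or more, 0 were apart between the libraries by 2-fold with separate intervals as deposited. Beside them stood 0.364% of all genes, a share too low to read the 0 as particular to kinesins. Of the 33 members with a mean of 1 TPM or more, 0 had scaled intervals that separate in either direction, beside 4.51% of genes lower and 7.3% higher in replicate 2. Below that level, at a mean of 0.775 TPM, Kif5a had separate scaled intervals and was lower in replicate 2. An exact binomial test of the reads, with Benjamini-Hochberg adjustment over all genes, compares these libraries and not conditions. Used in place of the intervals with the same 2-fold minimum, it called 0.453% of all genes. None of the 22 members reached 2-fold, the largest ratio being 1.61-fold (Kif1a). Its 0 of the 22 was therefore fixed by the fold and adds nothing to the count by intervals. The median log2 ratio of replicate 2 over replicate 1, after TMM scaling, was 0.02 for 12 mitotic kinesins, from -0.12 (Kif18a) to 0.10 (Kifc1), and -0.03 for 11 transport kinesins, from -0.69 (Kif1a) to 0.43 (Kif17). Both medians are small beside the gene-to-gene range, and the sign of the mitotic median turned to -0.05 with no scaling beyond TPM.

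The transport kinesins that stood lowest in replicate 2 were those known from neurons. Kif1a was 1.61-fold lower (log2 ratio -0.69), Kif5c 1.66-fold lower (-0.73) and Kif5a 1.78-fold lower (-0.83). The ratios of Kif5c and Kif5a lay inside the 5th to 95th percentile of protein-coding genes at 0.5 to 1 TPM, -1.27 to 0.89. The TPM of Kif5c lay under its deposited interval in both libraries. The posterior means of Kif5c were 1.64 and 1.22 TPM, with gene intervals that overlapped between the libraries. All its reads were assigned to Kif5c-201. The intervals of that transcript, 0.831 to 1.12 and 0.446 to 0.672 TPM, were separate, also after scaling. Of the other motors studied in neurons, Kifc2 had a log2 ratio of -0.20 and Kif17 one of 0.43. Kif17 had 168 and 185 reads, a log2 ratio of reads of 0.32 after scaling. Its retained intron Kif17-203 went from 0.90 to 1.82 TPM and its incomplete coding Kif17-202 from 0.80 to 0.87 TPM. Its complete coding transcripts went the other way, from 0.83 to 0.55 TPM. As deposited, intervals of each of these transcripts overlapped between the libraries, those of Kif17-203 narrowly (up to 1.242 and from 1.239 TPM). After TMM scaling, which raises replicate 2 by 0.07 (log2), those of Kif17-203 were separate and higher in replicate 2. The direction of the other transcripts is not resolved. In reads, Kif5a had 166 and 82 and Kif5c 180 and 96, with adjusted p-values of 0.000492 and 0.00183 by the same exact binomial test, which covers counting error only. Kif1a had 602 and 448 reads, a log2 ratio of reads of -0.25 after scaling (adjusted p = 0.0868 by the exact binomial test), against -0.69 in TPM. Its effective length, which the authors' tables average over its transcripts, went from 2530 nt in replicate 1 to 3430 nt in replicate 2.

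Neuron markers moved the same way. Of the 10 listed markers 7 had a mean of 1 TPM or more, and all 7 were lower in replicate 2, with a median log2 ratio of -0.57. For 6 of the 10 the scaled intervals were separate. Their summed level was 60.1 TPM in replicate 1 and 36.4 TPM in replicate 2, with Tubb3, a neuronal tubulin, at 9.68 and 3.84 TPM and Stmn2, a protein of growing axons, at 16.7 and 11.2 TPM. None of the 10 was at 0 in both libraries. Whether neurons had a part in the levels of Kif1a, Kif5a and Kif5c was not tested.

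**Figure D5:**
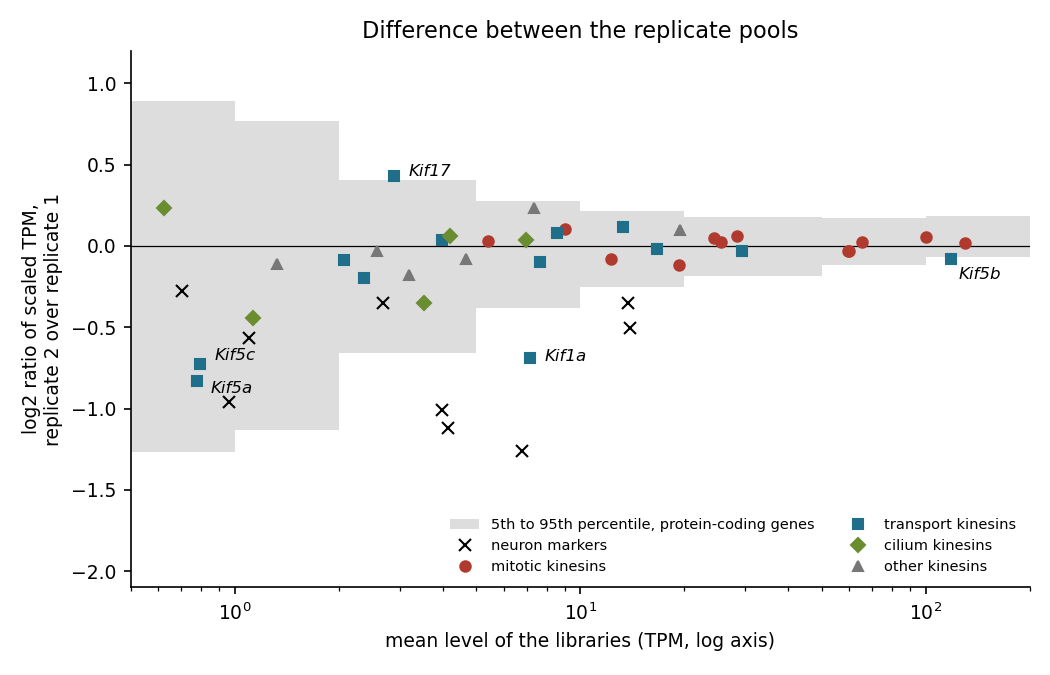
Log2 ratio of scaled TPM, replicate 2 over replicate 1 (vertical axis), against mean level in TPM (horizontal log axis) for kinesins and neuron markers with a mean of 0.5 TPM or more; the grey band is the 5th to 95th percentile of protein-coding genes in bins of mean level. Mitotic kinesins stay inside the band between -0.12 and 0.10, Kif1a lies under it, and Kif17 lies just above and Kif5b just below its edge. Kif5a and Kif5c are low but inside the band, which is wide at their levels.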

How the data were processed

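Total RNA of whole embryonic lung was measured in 2 libraries of a single group, named from the labels. The authors deposited a gene table and a transcript table per library, on mm10 with GENCODE M4 per the deposited text that describes the files. Not given in the sources used here are the program, its version and its use of strand. The expected counts, as deposited, are estimated reads per feature and need not be whole. TPM, per the file headers of the deposited tables, is a set of levels per length scaled to a common total that takes in spike-ins, and the deposited FPKM values are levels per kilobase scaled to library size. The percent of a gene's TPM held by each transcript is as the authors deposited it. Interval bounds of TPM, a signal never under 0, are given per the file headers with no stated level, and lie around a posterior mean, so 5 members in each library had a TPM outside their interval. Spike-in sequences and 26248 numbered features that name no gene stayed out of library sizes; the latter held 71 reads in replicate 1 and 66 in replicate 2.

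Names and positions came from GENCODE M21 on the same build, which matched 97.96% of Ensembl identifiers. Detection needed 1 TPM or more in both libraries. A gene was placed above another only if it was higher in each library, with deposited intervals that did not touch. Expected counts were rounded, and TMM factors (edgeR 4.0.16, R 4.3.3) or DESeq2 1.42.0 size factors scaled the log2 ratio between libraries; relative to TPM, TMM raised replicate 2 by 0.07 (log2). Libraries were called apart from a mean of 5 TPM, a 2-fold scaled ratio and separate intervals as deposited, without scaling. Scaled intervals, where named, are those with replicate 2 raised by the TMM scaling. Simulated counts used to try the calls held counting error only, less than the spread of these libraries, and so do not measure errors of the rule here. The alternative kept the mean and the 2-fold ratio with an exact binomial test, two-sided, with Benjamini-Hochberg adjustment at 0.05 (SciPy 1.17.1). Read counts differed between the libraries beyond sampling noise, chi-square over degrees of freedom being 7.07 for 17798 genes, and both were kept as separate samples. With 1 group no test between conditions exists. Reads carry no molecular identifiers, so intervals and floors cover counting and read assignment only.

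Every member was named with its values; transcripts were named where another transcript held 20% or more in both libraries, or where the leading transcript was not coding. The transcripts of Kif1a and Kif7 and Kif1b-203 fall outside that rule and were named after their values were seen. Promoter letters were searched in the RefSeq table of GRCm38.p6. Protein sequences were not used here. Not every overlap of kinesin exons with other genes is reported here. The members, roles and marker lists were chosen with earlier results of these data known.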

Additional observations from a re-analysis of the deposited data

How the results depend on the processing

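The number of detected kinesins ranged from 22 at a minimum of 5 TPM to 36 at 0.5 TPM, and was 32 and 35 when a single library was used. With 1 library at a time the mitotic median ranged from 25.2 to 26.1 TPM, the transport median from 5.31 to 8.10 TPM and their ratio from 3.22 to 4.74. The mitotic median became 17.0 in FPKM, 24.3 TPM with Kif2a and Kif24 added, 27.0 TPM over detected members only, and as a geometric mean 19.5 TPM (pseudocount of 0.1) or 23.4 TPM (pseudocount of 1). The transport median became 4.44 in FPKM, 4.33 TPM with Kif21a, Kif21b and Kif28 added, and 4.00 TPM on complete coding transcripts. The ratio of the medians was above 3 in every setting tried and became 5.61 with those wider groups and 6.41 on complete coding transcripts. The mitotic gene was higher in 124 to 128 of the gene pairs under the alternatives. At 1.5-fold instead of 2-fold, 1 kinesin was apart between the libraries, Kif1a, beside 0.755% of all genes. That call rests on intervals as deposited, from 7.73 TPM in replicate 1 against up to 7.61 TPM in replicate 2. On the TMM scale the intervals of Kif1a overlapped. CHR letters lay in 25% of mitotic promoters in the 100 bases before the start and in 50% on the gene strand alone, and in 0% of transport promoters near a GENCODE start. The settings of complete coding transcripts, of starts near GENCODE, of 50 bases around the start and of the transport median without Kif1a (log2 ratio of -0.03 as before) were chosen after seeing the data. With 2 libraries a spread is known only roughly, and the level of Kif19a rests on only 16 and 13 reads. No paired analysis was possible because there is a single group.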
